A study of Neurospora crassa with 18 samples.

Results

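The genes described here carry dimethylated lysine 36 of histone H3 (H3K36me2) placed by the methyltransferase ASH1, lack di- and trimethylated lysine 27 (H3K27me2/3), and were nevertheless transcribed in wild type (WT) Neurospora crassa. They were selected on 3 measured properties: a place on the authors' list of 1970 ASH1-marked genes, absence from their list of genes with H3K27me2/3, and 50 or more counts summed over both WT RNA libraries. This gave 378 of the 9730 genes in the tables (3.89%), and 27.6% of the 1370 ASH1-marked genes without H3K27me2/3. Of the others, 655 had 1 to 49 counts and 337 had none. The genes just inside the limit were NCU05844, ars-1 (an arylsulfatase gene) and NCU16806, with 50 counts each, and those just outside were NCU03001, NCU08624 and NCU09197, with 48 each. Since the genes were chosen by their WT counts, levels in WT and every comparison with WT are given only as a description.

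Histone methyltransferases of the ASH1 and SET2 families both methylate H3K36 but reach different genes. SET2 enzymes travel with the elongating RNA polymerase and mark genes while they are transcribed, whereas ASH1 enzymes, first known from the Trithorax group of flies, act without that link to the polymerase. H3K27me2/3 is the mark of Polycomb repressive complex PRC2 and lies over silent genes. Genes with the ASH1 mark, no PRC2 mark and a measurable transcript allow a separate question, namely whether RNA from genes that are already active changes when ASH1 is catalytically impaired.

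Poly-A+ RNA of germinated conidia was sequenced from 4 strains, with 2 libraries each. WT was N623 (mat A, his-3) and the parent strain was N2930 (mat A, his-3, Δmus-52::bar), which lacks a gene of nonhomologous end joining. The ash1(Y888F) strain N4878 (ash1(Y888F)-3xFLAG::hph, otherwise mat A and his-3) carries a point mutation in the catalytic domain together with a FLAG tag and has an intact mus-52 gene, and the Δset-2 strain N5761 (mat a, Δset-2::hph) lacks the other H3K36 methyltransferase, is of the opposite mating type and is not his-3. Each genotype is represented by 1 strain, and the ASH1-marked list itself comes from 1 ChIP-seq sample of Δset-2, so it records the mark in a strain without SET-2 and gives no amount. The H3K27me2/3 list gives a single window of 1000 bases per gene, which held the annotated gene start for 785 of its 836 genes, so a gene with this mark elsewhere can still be among the 378.

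Libraries held 6547197 to 8837798 counts in genes, and a further 3.69 to 12.0% of reads fell in no gene or could not be assigned to 1 gene. The mus-52 gene had 2 counts in each parent library and 255 to 483 in the other strains, as its deletion in N2930 requires, while set-2 still had 46 and 50 counts in Δset-2, against 113 to 210 elsewhere. The ash1 gene itself (NCU01932, set-3 in the annotation) had 179 and 181 counts in Δset-2, 711 and 784 in the parent and 556 to 825 in WT and ash1(Y888F), a fall in Δset-2 (log2 -1.98 against the parent, adjusted p = 0.00148, edgeR) whose part in the results for that strain was not tested. The ash1 point mutation leaves no trace in counts per gene. The deposited libraries carry 3 dates whose meaning is not stated. WT and parent share one of them, the second ash1(Y888F) library and both Δset-2 libraries share another, and the first ash1(Y888F) library has its own, so that date and strain cannot be told apart when a mutant is compared with the parent. The comparison of ash1(Y888F) replicate 2 with Δset-2 is the only one between mutants within a date.

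The expressed ASH1-marked genes had spans close to those of other expressed genes, and most had a marked gene beside them. Their median span was 2372 bases, against 2480 for the 6397 unmarked genes without H3K27me2/3 that passed the same count limit, and against 1724 and 1031 for the marked genes with 1 to 49 and with 0 counts. They were spread over all 7 linkage groups (LG) of the assembly NC12, from 2.55% of the genes on LG III to 4.38% of those on LG IV. Only 6 lay within 100 kb of the outermost gene of a linkage group, and 53 overlapped a gene on the opposite strand, from which counting by strand keeps them apart. A marked neighbour was present for 64.3% of them, against 68.2% of marked genes with 1 to 49 counts, 74.5% of those with none, 92.5% of ASH1-marked genes with H3K27me2/3 and 18.7% of expressed unmarked genes. Of the 378, 135 stood alone among unmarked genes and 106 belonged to runs of 4 or more marked genes, the longest of 14. A gene symbol was given for 39 of the 378 (10.3%), so most of the genes named below have no known role in the annotation used.

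The expressed ASH1-marked genes were of modest abundance in every strain. Scaled to the length of the gene, their median level was 4.89 CPM (counts scaled to a library total of 1e+06) per kb in WT, 4.58 in the parent, 4.45 in Δset-2 and 8.15 in ash1(Y888F), where the median of expressed unmarked genes ran from 16.9 to 18.4. Together they took 1.17 and 0.934% of all counts in the WT libraries and 1.00 and 0.848% in those of the parent, but 1.69 and 2.31% in ash1(Y888F) and 1.63 and 2.65% in Δset-2, so neither mutant overlapped WT or the parent. In Δset-2 replicate 2 a single gene, NCU06294, reached 5816 CPM, and the 5 most abundant genes made up 42.8% of the total of the 378. The median gene was not raised there. Median CPM per gene was 10.1 and 10.3 in the parent, 10.3 and 10.6 in Δset-2, and 18.6 and 21.2 in ash1(Y888F). The number of genes above the median length-scaled level of expressed unmarked genes in the same strain was 48 in the parent (12.7%), 66 in WT, 74 in Δset-2 and 119 in ash1(Y888F) (31.5%).

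**Figure D1:**
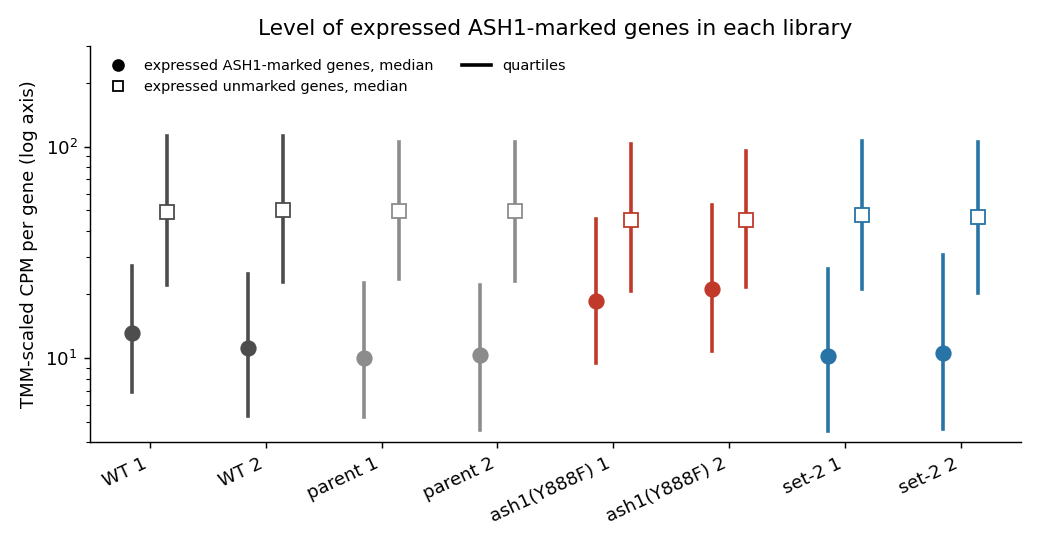
TMM-scaled CPM per gene (log axis) in each of the 8 libraries, with the median (symbol) and quartiles (line) of the 378 expressed ASH1-marked genes (filled circles) and of the 6397 expressed unmarked genes (open squares). The marked genes' median was 18.6 and 21.2 in ash1(Y888F) and between 10.1 and 13.2 in the other 6 libraries, while the unmarked median was above 40 in all 8.

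In ash1(Y888F) the RNA of expressed ASH1-marked genes was more often higher than lower relative to the parent. All 378 were tested, and 129 were higher (34.1%) and 14 lower (3.70%) at an adjusted p under 0.1 (edgeR, quasi-likelihood test), where 15.9% of the 8125 genes tested were higher and 4.01% lower. The 129 rises had a median log2 fold change of 2.35 (quartiles 1.61 and 3.09), and 125 of them were above 2-fold. The 14 falls had a median of -1.54. In each of the 143 called genes both libraries of one strain lay beyond both of the other. A call from 2 libraries per strain nearly requires this, so it adds no support. Of the 235 genes that did not pass, 170 had a positive and 65 a negative log2 fold change. Over all 378 genes the median was 0.81, against -0.12 for expressed unmarked genes, of which 324 were higher and 293 lower of 6397 (5.07 and 4.58%). Of the 655 marked genes with 1 to 49 WT counts, 487 were tested, 387 were higher and 1 was lower, but many of them passed the count filter only through the strain in which they were high, so these counts are no support. The same limit holds for those of the 378 with few counts in the lower strain, among them NCU01038, NCU00732, NCU02663, ars-1, gh11-1, NCU05842 and gh18-3. Of the 378, 41 had under 50 counts over both parent libraries and 11 over both ash1(Y888F) libraries. The FLAG tag, mus-52 and the library date differ between these strains along with the point mutation and cannot be told apart. In the parent mus-52 is deleted, and in ash1(Y888F) it is intact. RNA came from whole cultures, in which fewer cells of a kind and less RNA per cell cannot be told apart. In the same fit on simulated data, 96 of 100 genes changed 8-fold were called and 8 of 100 changed 2-fold. Far fewer genes were changed there than the 1620 called here, and fewer changed genes make the adjusted p stricter. The simulated shares therefore do not measure what could be detected in these data. Of the 167 genes of the 378 with a log2 fold change above 1, 125 were called. Without parent replicate 1 the counts were 91 higher and 5 lower, without parent replicate 2 they were 91 and 9, and without ash1(Y888F) replicate 2 the median was 0.62.

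**Figure D2:**
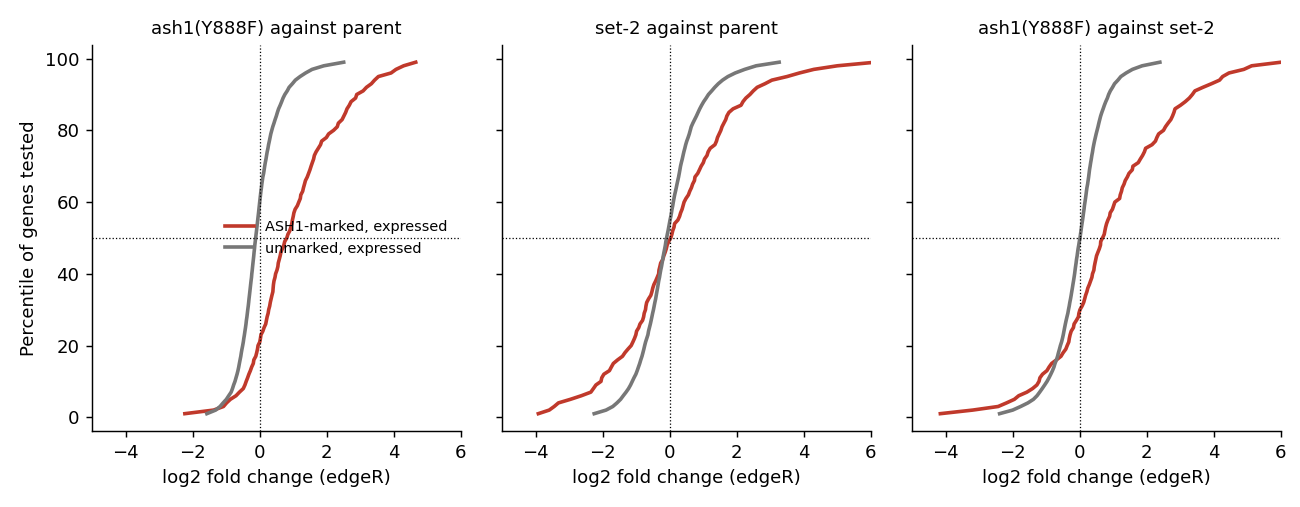
Percentile (vertical axis, % of genes tested) against log2 fold change (horizontal axis, edgeR) for expressed ASH1-marked genes (red) and expressed unmarked genes (grey) in the 3 comparisons among parent, ash1(Y888F) and Δset-2. In ash1(Y888F) the red curve lay to the right of the grey one over most of its length (medians 0.81 and -0.12), whereas in Δset-2 against the parent the red curve was wider than the grey one around a median of 0.03.

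The difference between marked and unmarked genes was present at every level of WT transcription. Among genes with 50 to 99 WT counts, 40.8% of 103 marked and 17.6% of 306 unmarked genes had more RNA in ash1(Y888F) than in the parent, with median log2 fold changes of 1.05 and 0.39. From 200 to under 500 counts the shares were 25.5% of 98 and 5.16% of 1512. With 1000 or more counts they were 26.5% of 34 marked and 3.73% of 2493 unmarked genes, with medians of 0.64 and -0.16. The median of the marked genes was lower above 200 counts (0.45 to 0.64) than below (1.05 in both classes). The share of marked genes that were lower ran from 1.00 to 9.30% over the 5 classes, and that of unmarked genes from 1.63 to 6.51%. These shares are counts without a test of their own.

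**Figure D3:**
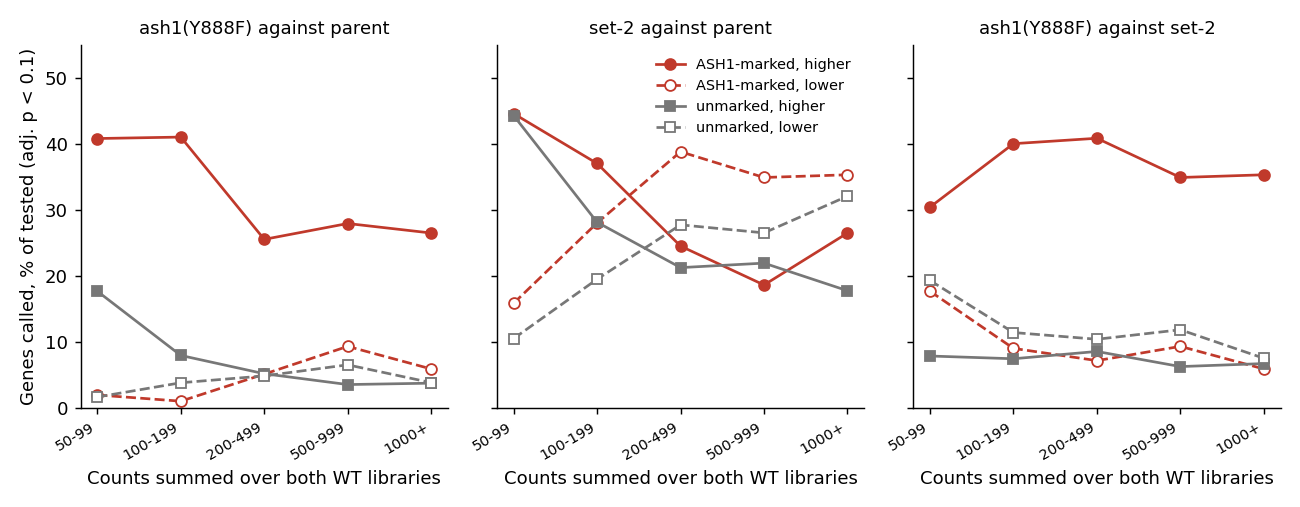
Share of genes called (% of those tested, edgeR adjusted p under 0.1) in 5 classes of counts summed over both WT libraries, for expressed ASH1-marked genes (red circles) and expressed unmarked genes (grey squares), higher (filled, solid line) and lower (open, dashed line). In ash1(Y888F) against the parent the marked share that was higher lay between 25.5 and 41.0% in all 5 classes and the unmarked share fell from 17.6 to between 3.52 and 7.93%, while in Δset-2 against the parent the curves of marked and unmarked genes ran close together in the class of 50 to 99 counts.

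The 8 largest rises began at 3 to 126 counts per library in the parent and reached 11.5 (NCU02663) to 156 CPM per kb (NCU01038) in ash1(Y888F), where the median of expressed unmarked genes was 16.9. NCU09093 on LG I (831803 to 834075) had 23 and 24 counts in the parent against 2364 and 2005 in ash1(Y888F), 42 and 39 in WT and 22 and 38 in Δset-2, which made 6.79 on the log2 scale against the parent (standard error, SE, 0.35, adjusted p = 0.00227, edgeR). Only the ash1(Y888F) libraries were high, and the other 6 libraries had 22 to 42 counts. NCU01038 on LG V (2735003 to 2737048) had 51 and 5 counts in the parent against 1646 and 2919 in ash1(Y888F), 40 and 19 in WT and 4 and 3 in Δset-2 (log2 6.52, SE 1.02, adjusted p = 0.0123), so that the parent libraries differed widely and still lay far below the mutant. Its neighbour NCU01039, named after its values were seen, rose as well, from 28 and 39 counts to 127 and 710. NCU00732 on LG I (7386748 to 7388890) went from 3 and 8 counts in the parent to 239 and 431, while it had 36 and 20 in WT and 34 and 70 in Δset-2. Here the parent was the lowest of the 4 strains, and its log2 fold change of 6.13 (SE 0.50, adjusted p = 0.00311) rests on that low level. NCU00604 on LG I (7863271 to 7865666) had 31 and 41 counts in the parent and 827 and 637 in ash1(Y888F), against 26 to 92 in the other libraries (log2 4.61, SE 0.33). NCU04436 on LG IV (3366920 to 3368637), which overlaps a gene on the opposite strand, had 30 and 33 counts in the parent and 418 and 602 in ash1(Y888F), against 38 to 51 in WT and Δset-2 (log2 4.25, SE 0.28). Both were high in ash1(Y888F) alone. NCU04482 (log2 4.82), NCU02663 (4.51) and NCU11295 (4.36) completed the 8 largest, and none of these 8 has a symbol. NCU02663 had 9 and 13 counts in the parent, 37 and 152 in WT and 228 and 193 in ash1(Y888F), so its value too rests on a low parent level. The parent libraries of NCU11295 were far apart, with 126 and 17 counts.

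Falls were fewer and smaller. eas, the hydrophobin gene whose product forms the rodlet layer of conidia, had 1333 and 1620 counts in the parent against 76 and 82 in ash1(Y888F), 338 and 454 in WT and 1966 and just under 1000 in Δset-2, and against the parent the log2 value was -3.97 (SE 0.25, adjusted p = 0.00273, edgeR). The mutant was lowest, though WT was also well below the parent. gh11-1, a xylanase gene, had 130 and 102 counts in the parent against 8 and 0 in ash1(Y888F), 31 and 42 in WT and 12 and 4 in Δset-2 (log2 -4.55, SE 0.95, adjusted p = 0.0291), where a count of 0 allows up to 3 counts. It passed the count filter only through the parent, so this call is no support. NCU00265, a gene of LG III (3218739 to 3220987), reached 4473 and 2769 counts in the parent against 810 and 176 in ash1(Y888F), 426 and 621 in WT and 69 and 37 in Δset-2. The parent alone was high, and ash1(Y888F) overlapped WT. Its log2 fold change of -2.58 (SE 0.80) was no longer called without parent replicate 1 (adjusted p = 0.157). NCU05842 (-2.97), NCU02858 (-2.13), NCU01382 (-1.77), NCU00646 (-1.42), gh61-2 (-1.34) and NCU02174 (-1.25) were the other falls among the 8 largest of sufficient abundance, and NCU00646, gh61-2 and NCU02174 lost the call when 1 parent library was left out. The 6 genes with the highest length-scaled level in the parent moved in different ways. NCU04907, NCU08183 and NCU04284 had log2 fold changes of 0.06, -0.19 and 0.72 (adjusted p = 0.955, 0.832 and 0.319), ccg-1 rose, and NCU00265 and NCU05841 (-0.93) fell, the last a call lost in 5 of the 10 other fits (other tools, scalings and designs, and each library left out), among them those without either parent library.

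Among genes with a known role, the phosphatase gene pho-2 rose in ash1(Y888F). From a list of 37 symbols for nutrient uptake and its regulation, 29 matched a gene and 5 were expressed ASH1-marked genes. Of these, 3 were called higher in ash1(Y888F) (ars-1, pho-2 and qa-3) and none lower. ars-1, an arylsulfatase gene of sulfur acquisition, had 10 and 8 counts in the parent against 159 and 115 in ash1(Y888F), 19 and 31 in WT and 16 and 4 in Δset-2 (log2 4.17 against the parent, SE 0.45, adjusted p = 0.00541, edgeR). It passed the count filter only through ash1(Y888F), so this call is no support. pho-2, an alkaline phosphatase gene, had 43 and 77 counts in the parent against 293 and 255 in ash1(Y888F), 46 and 69 in WT and 17 and 27 in Δset-2 (log2 2.46, SE 0.35, adjusted p = 0.00988). Both were highest in ash1(Y888F), with no overlap. qa-3, the quinate dehydrogenase gene, rose from 35 and 36 to 75 and 74 counts (log2 1.32, adjusted p = 0.0591), a call lost without either parent library. pho-4, a phosphate permease gene, had 150 and 285 counts in the parent and 1195 and 192 in ash1(Y888F), which overlapped (adjusted p = 0.202), but only 20 and 7 in Δset-2. cys-14, a sulfate permease gene, had 1766 and 2705 counts in the parent and 3908 and 1803 in ash1(Y888F) (log2 0.66, adjusted p = 0.436). Of the 23 other genes of the list that were tested, 3 were higher and 1 lower.

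Genes for plant cell wall degradation included 2 called falls, of which that of gh11-1 is no support. Of 5 expressed ASH1-marked genes in that list, gh11-1 and gh61-2 (a polysaccharide monooxygenase gene) fell in ash1(Y888F). gh61-2 had 398 and 362 counts in the parent against 152 and 98 in ash1(Y888F), 310 and 292 in WT and 62 and 21 in Δset-2, so both mutants were below both control strains. The regulators clr-1 (log2 0.54, adjusted p = 0.461) and xlr-1 (0.48, adjusted p = 0.566) and the monooxygenase gene gh61-6 (1.38, adjusted p = 0.103) did not pass, although gh61-6 passed as higher in 8 of the 10 other fits (adjusted p from 0.0421 to 0.509). Of the 25 other genes of the list that were tested, 11 were higher and 1 lower. Among further glycoside hydrolase genes, gh18-9 of the chitinase family rose from 67 and 52 counts in the parent to 319 and 801 (log2 3.43, SE 0.46, adjusted p = 0.00861), while gh18-3 of the same family (-1.65) and gh47-3 of the mannosidase family (-1.10) fell, both losing the call when 1 parent library was left out. chit-1, a chitinase gene, had 2260 and 1798 counts in the parent and 1377 and 155 in ash1(Y888F), too far apart for a call (adjusted p = 0.512).

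The conidiation list contributed eas, ccg-1 and pks-1. ccg-1, a clock-controlled gene, had 739 and 674 counts in the parent against 2762 and 8550 in ash1(Y888F), 683 and 299 in WT and 5907 and 10268 in Δset-2, so it rose in both mutants (log2 3.19 and 3.59, SE 0.54 and 0.35, adjusted p = 0.0159 and 0.00185, edgeR). The polyketide synthase gene pks-1, which is also in the secondary metabolism list, rose from 127 counts in each parent library to 167 and 236 in ash1(Y888F) (log2 0.90, adjusted p = 0.0877), a call lost in 5 of the 10 other fits, namely DESeq2, the replicate block, and those without ash1(Y888F) replicate 2 or either parent library. The 22 other genes of the conidiation list summed to 21483 and 12210 CPM for the parent against 20244 and 21393 for ash1(Y888F), 14686 and 13632 for Δset-2 and 22233 and 12673 for WT. The ranges of both mutants lay within those of the parent and WT, and none of the 22 was at 0 other than con-13 in parent replicate 1. Of the 24 genes of that list tested, 9 were higher and 4 lower in ash1(Y888F) and 14 higher and 2 lower in Δset-2, and their part in the results for the marked genes was not tested.

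The 3 expressed ASH1-marked genes of genome defence and self-recognition (dcl-2, het-6 and pin-c) did not pass the test in ash1(Y888F). Of the 10 other genes of the RNA silencing and genome defence list that were tested, 5 were higher and 1 lower. Among the 4 others tested of the heterokaryon incompatibility list, 0 were higher and 0 lower. dcl-2, a Dicer gene of quelling, had 132 and 102 counts in the parent and 111 and 209 in ash1(Y888F) (log2 0.66, adjusted p = 0.304, edgeR). het-6, a heterokaryon incompatibility gene, had 183 and 188 counts in the parent and 123 and 243 in ash1(Y888F) (0.20, adjusted p = 0.743), and pin-c, from another incompatibility locus, had 54 and 33 counts in the parent against 72 and 114 in ash1(Y888F) and 162 and 315 in Δset-2, where it rose (log2 2.52, adjusted p = 0.00818). In ash1(Y888F) pin-c passed in 4 of the 10 other fits. msh4, a meiotic mismatch repair homolog, had 15 and 27 counts in the parent against 27 and 212 in ash1(Y888F) and 307 and 540 in Δset-2, where it rose (log2 4.41, adjusted p = 0.00161), while its value in ash1(Y888F) did not pass (2.69, adjusted p = 0.12) but did in 6 of the 10 other fits (adjusted p from 0.000848 to 0.416). ecd-1 rose in ash1(Y888F) from 36 and 31 to 80 and 95 counts (log2 1.62, adjusted p = 0.0313), a call lost when either parent library was left out. None of the 378 was in the lists for light, clock and carotenoid genes, mating and sexual development, chromatin modification or heat shock and oxidative stress. Of all 39 genes with a symbol, 8 were higher and 5 lower in ash1(Y888F), 20.5 and 12.8%, beside 15.9 and 4.01% of all genes tested. The 11 with glycoside hydrolase symbols gave 1 of these rises and 4 of these falls. Shares over all genes with a symbol were not computed.

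**Figure D4:**
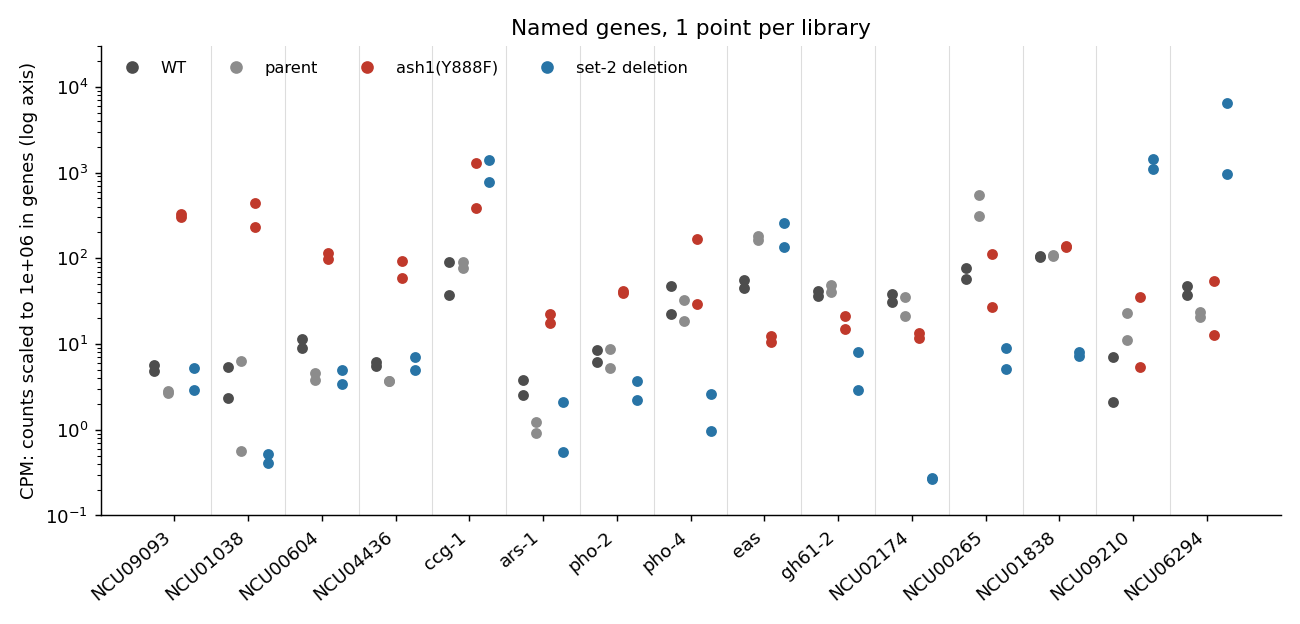
Counts scaled to 1e+06 counts in genes, CPM (log axis), of 15 named genes, with 1 point per library and strains set apart by colour. NCU09093, NCU01038, NCU00604, NCU04436, ars-1 and pho-2 were highest in both ash1(Y888F) libraries, eas was lowest there, NCU02174, NCU00265 and NCU01838 were lowest in both Δset-2 libraries, and NCU09210 and NCU06294 were highest in them.

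In Δset-2 the expressed ASH1-marked genes moved in both directions. Of 376 tested against the parent, 123 were higher (32.7%) and 109 lower (29.0%), where 27.2% of the 7768 genes tested were higher and 25.1% lower, so the shares were near the background. The median log2 fold change was 0.03, and it was -0.10 without Δset-2 replicate 2. Expressed unmarked genes had 1391 higher and 1762 lower of 6396 (21.7 and 27.5%) and a median of -0.09. The marked genes were spread more widely, with quartiles of -0.92 and 1.21, against -0.60 and 0.45 for expressed unmarked genes. They were also less abundant, with a median SE of 0.33 against 0.22. The part of abundance in this spread was not tested. Called changes beyond 8-fold were 23 rises and 18 falls of 376 marked genes, against 85 and 21 of 6396. Some of these marked genes passed the count filter only through the strain in which they were high, so these counts are no support. The called changes were about equal in size in both directions, with a median log2 fold change of 1.71 for the rises and -1.70 for the falls. With 50 to 99 WT counts, 44.6% of marked and 44.3% of unmarked genes were higher. From 200 to under 500, 24.5 and 21.2% were higher and 38.8 and 27.7% lower. For genes with 100 or more WT counts, 78 of 275 were higher and the median was -0.27. Mating type, his-3, mus-52 (deleted in the parent and intact in Δset-2) and the library date differ between Δset-2 and the parent along with set-2 and cannot be told apart.

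Single genes changed very strongly in Δset-2. NCU06294, a gene of 10623 bases on LG IV (3004977 to 3015599), had 169 and 209 counts in the parent, 7398 and 47848 in Δset-2, 91 and 354 in ash1(Y888F) and 355 and 304 in WT (log2 7.26 against the parent, SE 1.02, adjusted p = 0.00461, edgeR). The Δset-2 libraries were far above all others and far from each other. NCU09210 on LG I (5849601 to 5852150) had 92 and 204 counts in the parent, 8452 and 10524 in Δset-2, 255 and 35 in ash1(Y888F) and 52 and 17 in WT (log2 6.09, SE 0.46, adjusted p = 0.00126). NCU07129 near the end of LG VI (6.62), NCU03121 (15 and 53 counts in the parent, 567 and 5259 in Δset-2) and NCU07036 (6.30) were the other large rises, of which NCU07129 also had 1929 counts in 1 of the ash1(Y888F) libraries and 46 in the other. Among the falls, NCU02174 on LG I (991777 to 993756) had 288 and 186 counts in the parent against 83 and 87 in ash1(Y888F), 283 and 250 in WT and 2 in each Δset-2 library (log2 -6.74, SE 0.49, adjusted p = 0.00107). NCU01838 on LG II (2206814 to 2209054) had 878 and 972 counts in the parent against 975 and 907 in ash1(Y888F), 787 and 840 in WT and 61 and 53 in Δset-2 (log2 -3.94, SE 0.20, adjusted p = 0.000676). It was even among the first 3 strains and low in the last. NCU00265 fell by 6.03 on the log2 scale, and this gene lies 15.5 kb from the deleted set-2 gene with 3 genes between them. pho-4 fell by 3.91 and pho-2 by 1.36, the latter a call lost without Δset-2 replicate 1 or parent replicate 2. NCU02042, named after its values were seen, had 84 and 69 counts in the parent and 0 and 1 in Δset-2. NCU02174, pho-4 and NCU02042 had too few counts in Δset-2 to pass the count filter there, so they were tested only through the parent. NCU07036, with 9 and 24 counts in the parent, passed only through Δset-2. These calls are no support.

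Compared directly, expressed ASH1-marked genes were more often higher in ash1(Y888F) than in Δset-2. Of 377 tested, 138 were higher (36.6%) and 40 lower (10.6%), where 14.8% of the 8270 genes tested were higher and 11.0% lower, and the median log2 difference was 0.69, against 0.01 for expressed unmarked genes (457 higher and 647 lower of 6396). Within 1 date, that is without ash1(Y888F) replicate 1, the median was 0.76. Set against each Δset-2 library in turn, ash1(Y888F) replicate 2 had median log2 differences (CPM plus 0.5) of 0.85 and 0.79. Expressed unmarked genes had -0.05 and 0.04 in the same order. Mating type, his-3 and the FLAG tag also differ between these strains and cannot be told apart. Without ash1(Y888F) replicate 2 the median was 0.41, and without Δset-2 replicate 2 the number that were lower was 17. The marked genes with 1000 or more WT counts were higher in 35.3% of 34 cases, against 6.70% of 2493 unmarked genes. The largest differences were those of NCU01038 (log2 9.46, SE 0.49), NCU09498 (7.63, SE 0.49), NCU09093 (6.37, SE 0.41) and NCU02022 (5.93, SE 0.34). NCU09498, a gene of LG III (119585 to 121352), reached 787 and 652 counts in ash1(Y888F), 6 and 2 in Δset-2, 52 and 49 in the parent and 20 and 41 in WT, and NCU02022 on LG I (1647684 to 1650672) had 281 and 326, 5 and 6, 61 and 81, and 65 and 53 in the same order. For both, the control strains lay between the mutants. NCU01038, NCU09498 and NCU02022 had too few counts in Δset-2 to pass the count filter there, so they were tested only through ash1(Y888F). NCU06294 (-6.81), NCU09210 (-5.80), NCU07036 (-5.32) and NCU05628 (-4.49) were the largest in the other direction. Of these, NCU05628, with 8 and 15 counts in ash1(Y888F), passed the count filter only through Δset-2.

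Rises in ash1(Y888F) were found both in runs of marked genes and outside them. Of the 135 genes without a marked neighbour 30.4% were higher than in the parent, of the 137 in runs of 2 or 3 marked genes 35.0%, and of the 106 in longer runs 37.7%. Of the 21 next to a gene with both ASH1 mark and H3K27me2/3, 7 were higher and none lower. Over all 378 the shares were 34.1 and 3.70%, so these places were near the whole set. By linkage group the share that was higher ran from 8 of 32 genes on LG III to 22 of 44 on LG VII. The shares over all genes of each linkage group were not computed. The 378 genes formed 58 adjacent pairs, and in 7 pairs both genes were higher in ash1(Y888F), in 1 both were lower and in 2 the calls were opposite (12.1, 1.72 and 3.45%), beside 5.32, 0.283 and 0.750% of all 7070 adjacent pairs tested. In Δset-2 both genes were higher in 12 of 57 pairs, both lower in 10 and opposite in 4 (21.1, 17.5 and 7.02%), beside 9.09, 7.83 and 10.9% of 6615. In ash1(Y888F) single marked genes were also called higher more often than all genes tested (34.1 against 15.9%). No pair share was computed that allows for this, and the pair shares have no test. A row of 7 such genes on the minus strand of LG IV (3189039 to 3201537), picked after the values were seen, was higher in Δset-2 throughout, with log2 fold changes from 1.02 to 3.52, while 4 of the 7 were higher in ash1(Y888F). Within the row NCU04487 had 104 and 87 counts in the parent, 756 and 815 in Δset-2, 425 and 448 in ash1(Y888F) and 76 and 58 in WT, and NCU16805 had 36 and 20, 380 and 234, 156 and 180, and 48 and 35. Both were highest in Δset-2 and also above both control strains in ash1(Y888F). NCU04488, with 83 and 68 counts in the parent, rose in Δset-2 to 151 and 140 and had 37 and 58 in ash1(Y888F).

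Comparisons with WT are a description, since the genes were chosen by WT counts. Against WT, 84 of the 378 were higher in ash1(Y888F) and 13 lower, beside 13.0 and 3.36% of the 8125 genes tested, with a median log2 fold change of 0.57. In Δset-2 84 were higher and 115 lower, beside 21.7 and 19.8% of 7741 genes, with a median of -0.24. With genes chosen by parent counts instead, these medians were 0.57 and -0.26. In the parent 2 were higher and 5 lower, beside 0.268 and 1.51% of 7464 genes, with a median of -0.23. In all, 337 of the 378 had 50 or more counts over both parent libraries, 367 over both ash1(Y888F) libraries and 327 over both Δset-2 libraries. Across the 378 genes, which are not independent replicates, Spearman's rho between the libraries of a strain was 0.842 in ash1(Y888F), 0.939 in Δset-2, 0.883 in the parent and 0.866 in WT.

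H3K27 methylation in ash1(Y888F) could be read for 1 of the 378 genes, since the deposited ratio tables hold 592 genes. NCU08510, named after its values were seen, had a mean log2 ratio over WT around its start of -0.47 in ash1(Y888F), where the table's median was 0.08, and of -0.48 in the Δnpf strain, where the median was -0.46. These ratios come without replicates.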

How the data were processed

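Members, gene lists and tests were chosen with earlier results of these data known. The authors deposited raw counts per gene, made from stranded single-end reads with Stacks, TopHat2, SAMtools and HTSeq (counting by strand), with versions that no source used here gives. Their gene lists, from ChIP-seq reads aligned with Bowtie2 and summarised with deepTools, were deposited with a score of 0 in each row, so only membership was used. The authors' H3K27 tables hold log2 ratios, mutant coverage divided by that of WT. The first parent library was read from a table without column names, and its 7 other count columns were not used. The authors' tables of changed genes hold their own log2 fold changes and p-values and were not used.

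Each comparison used 2 libraries against 2 in edgeR 4.0.16 under R 4.3.3, with TMM scaling, its filter at a minimum count of 10, the quasi-likelihood test and Benjamini-Hochberg adjustment over all genes tested, called under 0.1. SEs are approximate and were taken as the size of the log2 fold change divided by the root of the F value. The study calls the libraries of a strain biological replicates and describes no separate cultures, and p-values measure the spread between them. A count of 0 allows up to 3 counts per library by counting error alone. Levels are TMM-scaled CPM, divided by gene span in kb where compared between genes. Reads in no gene or in several (3.69 to 12.0%) entered neither library sizes nor tests. Alternatives were DESeq2 1.42.0, RLE size factors, TMM over ASH1-unmarked genes, no filter, all 4 strains in the fit, a replicate block, an adjusted p under 0.05, other count minimums for membership, genes chosen by parent counts, and fits without each library, in which the spread of the strain left with 1 library is assumed equal to that of the other. The fit was tested on simulated data with these libraries' means and sizes. Symbols come from the RefSeq annotation of NC12, which held all 378 locus tags (374 with the same span), and of 220 listed symbols 175 matched a gene, 16 of them members.

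Genes named are list members, the 6 with the highest CPM per kb in the parent, the 8 largest rises and falls in ash1(Y888F) against the parent and the 4 largest in each other comparison (called, average log2 CPM of at least 3, no overlap of libraries), 3 on each side of the count limit, and 6 others with a symbol.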

Additional observations from a re-analysis of the deposited data

How the results depend on the processing

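The direction of the main result held in every alternative tried. In ash1(Y888F) against the parent the numbers that were higher and lower were 143 and 12 with DESeq2, 131 and 13 with RLE size factors, 139 and 12 with TMM over unmarked genes, 136 and 14 without the low-count filter and 159 and 13 with all 4 strains in the fit. At an adjusted p under 0.05, 6 were lower, and with 25 or more WT counts as the limit the median log2 fold change was 1.02. Leaving out 1 library gave 91 to 168 higher, 5 to 21 lower and medians of 0.62 to 0.91. Of the 129 genes that were higher, 70 were called higher in each of the 10 other fits, as were 5 of the 14 that were lower. In Δset-2 against the parent the median was 0.0725 with TMM over unmarked genes, 0.14 with 25 or more WT counts and -0.27 with 100 or more, where 78 were higher, and ran from -0.10 to 0.10 with 1 library left out (87 to 112 higher, 79 to 98 lower). In ash1(Y888F) against Δset-2, 23 were lower at an adjusted p under 0.05 and 22 with 100 or more WT counts. Leaving out 1 library gave 100 to 153 higher, 17 to 41 lower and medians of 0.41 to 0.76. Choosing genes by their parent counts and comparing them with WT gave counts within 1.5 times those of the genes chosen by WT counts. The labels tie no file number to a shared culture or day, so the libraries were taken to share only a number. Deviations of same-numbered libraries had correlations of -0.08 for ash1(Y888F) and parent, -0.03 for Δset-2 and parent, 0.37 for the mutants and 0.52 for parent and WT. With a replicate block, 137 were higher and 12 lower in ash1(Y888F), 126 and 112 in Δset-2, and 169 and 57 between the mutants, where calls over all genes went from 2134 to 3358. For the named genes of the 378 and those just below the count limit, no call changed sign in any of the 10 other fits of a comparison. With 2 libraries per strain, changes near 2-fold could be missed in ash1(Y888F), and where values moved the cause was not tested.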
